A study of Mus musculus with 3 samples.

Results

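The cells described here were 313 CD8 T cells that lay within a sort for CD1d-tetramer-binding T cells of the thymus after bone marrow transplantation (BMT). They were chosen from measured values. A member had at least 1 unique molecular identifier (UMI, a count of 1 captured RNA molecule) of Cd8a and at least 1 of Cd8b1, the genes of the CD8 alpha and beta chains. It had no UMI of Siglech, a plasmacytoid dendritic cell receptor, and none of Foxp3, the transcription factor of regulatory T cells. At most 2 of 7 killer genes (Klrd1, Klrk1, Klrc1, Klre1, Ccl5, Cd160 and Fasl) were detected in it. Of 11527 cells of the BMT libraries that passed the filters, 104 of 5970 BM only cells and 209 of 5557 BM + Spl cells met this rule. In the C57BL/6 library 3 of 4434 cells met it, and these were not analysed further. The whole series held 15961 filtered cells.

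Every recipient was an F1 (C57BL/6 x BALB/c) mouse, irradiated lethally and given C57BL/6 marrow depleted of T cells. BM only recipients were given that marrow alone, and BM + Spl recipients were also given C57BL/6 splenic cells and formed the group with graft-versus-host disease (GvHD). Both BMT groups carry 16 weeks as their labelled age and were taken 9 weeks after BMT, and the C57BL/6 mice without BMT carry 7 weeks. Thymic cells bearing CD8 were first removed with anti-CD8-FITC and anti-FITC MicroBeads, and TCRβ+CD1d-tet+CD24-NK1.1- cells were then sorted. The CD8 cells described here therefore passed both a depletion against their own coreceptor and a tetramer gate, and how completely either step worked in each library was not measured. Each condition was 1 library of pooled mice, so no difference below has a replicate check, and every interval is a 95% counting interval only. Donor and recipient cells were not distinguished.

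A CD8 T cell begins in the thymic cortex as a cell with both CD4 and CD8, which uses Rag1 and Dntt to rearrange its T cell receptor (TCR). Selection by MHC class I then turns off Cd4, and Sox4 and Itm2a are prominent around that step. A cell that is ready to leave the thymus raises Klf2, Ccr7 and S1pr1, the last being the receptor that draws it into the blood. Invariant natural killer T (iNKT) cells, which the tetramer was meant to capture, are selected by CD1d instead, depend on Zbtb16 (PLZF) and pair 1 invariant alpha chain with few V beta segments.

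Most members carried CD3 genes, and other markers of the label were found in part of them. Cd8a (chr6:71373427-71379173, GRCm38, plus strand) ranged from 1 to 16 UMIs a cell in BM only, with a median of 3, and from 1 to 28 in BM + Spl, with a median of 4. Cd8b1 (chr6:71322788-71337494, plus strand) ranged from 1 to 17 with a median of 3 and from 1 to 25 with a median of 4. A single UMI of Cd8a supported 15 BM only and 25 BM + Spl members, and a single UMI of Cd8b1 supported 21 and 31. At least 1 UMI of Cd3d, Cd3e or Cd3g was found in 100 of 104 and 208 of 209 members. Cd3e, a chain of the CD3 complex, was at 1330 and 1418 CPM (UMIs of a gene per 1000000 UMIs of the members). Zbtb16 was found in 4 and 8 members and summed to 17 and 20.5 CPM. Of the other markers, Lef1 was detected in 45 and 126 members (43.3% and 60.3%, against 67.0% and 89.3% of Zbtb16+ cells), and Sox4 or Itm2a in 41 and 91. Cd4 had a UMI in 18 BM only members (17.3%) and 21 BM + Spl members (10.0%), compared with 34.7% and 51.3% of the Zbtb16+ cells without Cd8a and Cd8b1 (1698 and 1911 cells), which served as the iNKT-side comparison.

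Free RNA can place both transcripts in cells that do not make them, and this was gauged in other cell types. Among B cells (3 or more UMIs of Cd79a), 1 of 82 in BM only (1.22%, median 6340.5 UMIs a cell) and 0 of 62 in BM + Spl (which allows up to 4.84% by 3 cells, or 5.78% as the exact upper bound, median 8447 UMIs) held both genes. Both genes were also held by 1 of 20 and 1 of 19 myeloid cells (3 or more UMIs of Lyz2 or C1qa; 5% and 5.26%, medians of 7947 and 8639 UMIs), and by 11 of 1785 and 18 of 1983 Zbtb16+ cells (0.616% and 0.908%, medians of 7211 and 10006 UMIs). The B cells were few, and their upper bounds (6.61% in BM only and 5.78% in BM + Spl) lay above the shares of members given below in both libraries. Members were shallower, with medians of 3345 and 4416 UMIs a cell. Cells with 3 or more Siglech UMIs held both genes in 27.5% of 167 and 34.2% of 395 cells, and the rule leaves such cells out. Markers of other cells were present among members, and several lists summed to more than in Zbtb16+ cells. Of the plasmacytoid dendritic cell list (7 genes), 1 gene in BM only and 3 in BM + Spl were at 0, Siglech among them by the rule, and the sum was 201 and 157 CPM (105 and 144 in Zbtb16+ cells), led by Ccr9, which thymocytes also express. For the B cell list, 4 of 6 genes were at 0 in both libraries, among them Cd79a, Ms4a1 and Igkc, and the sum of 182 and 178 CPM (64.2 and 44.4 in Zbtb16+ cells) was led by Ighm. The macrophage and dendritic cell list had 6 and 4 of 9 genes at 0, Csf1r, C1qa, C1qb and Itgax in both, and summed to 700 and 565 CPM (254 and 243 in Zbtb16+ cells), led by Cd74, of which 100 of the 278 BM only UMIs came from 1 cell. Of 6 NK cell genes, Ncr1, Klra8 and Klra4 were at 0 in both libraries, yet the sum was 263 CPM in BM only and 8.003 in BM + Spl (114 and 52.3 in Zbtb16+ cells), and 77 of the 93 Tyrobp UMIs of BM only came from 1 cell. Erythroid genes were all at 0, 4 of 6 thymic epithelium genes were at 0 in each library (6.36 and 18.7 CPM in sum, 4.02 and 3.64 in Zbtb16+ cells, led by Epcam), and the gamma delta T cell list summed to 70.0 and 21.3 CPM (149 and 114 in Zbtb16+ cells) with 2 and 3 of 6 genes at 0, led by Tcrg-C1. Of 6 regulatory T cell genes only Foxp3 was at 0, by the rule, and the sum of 596 and 646 CPM (201 and 163 in Zbtb16+ cells) was led by Ikzf2. The part of these markers in the results below was not tested, apart from the ratios given without members that lacked CD3 UMIs or held plasmacytoid dendritic or NK cell genes.

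The threshold on killer genes cut through a continuous range. Among cells with Cd8a and Cd8b1 and without Siglech and Foxp3, 54, 28 and 22 BM only cells had 0, 1 and 2 killer genes and were members, and 16, 15, 8, 4 and 1 cells with 3 to 7 of them were not. In BM + Spl the members with 0, 1 and 2 killer genes numbered 125, 53 and 31, and the cells with 3 to 7 numbered 27, 42, 29, 16 and 3. In both libraries most members had no killer gene at all. Those just inside the threshold (2 genes) were 22 and 31 cells, and those just outside it (3 genes) 16 and 27. BM + Spl had a second accumulation at 4 killer genes, and BM only declined at each step.

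**Figure D1:**
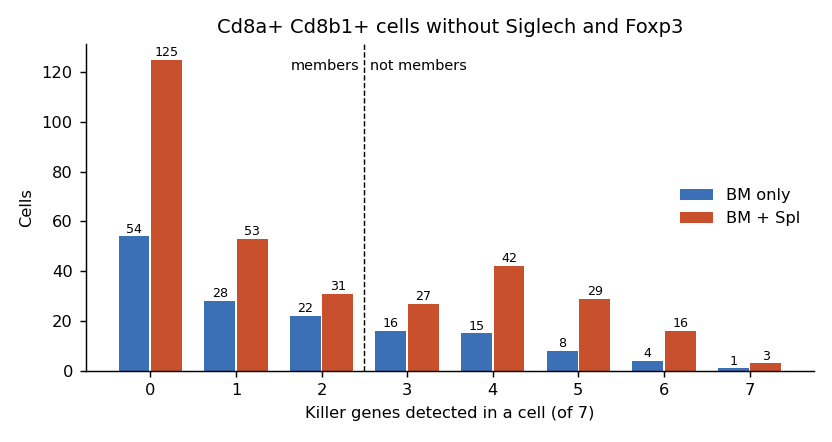
Number of cells (y axis) with Cd8a and Cd8b1 and without Siglech and Foxp3 by how many of the 7 killer genes they held (x axis), for each BMT library. Members of the rule have 0 to 2, and in each library the most common number is 0 (54 and 125 cells).

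CD8 members made up a larger share of the BM + Spl library than of the BM only library. They were 1.74% of filtered cells in BM only (1.43 to 2.11, exact Clopper-Pearson interval) and 3.76% in BM + Spl (3.28 to 4.30). The ratio of the shares was 2.16-fold, or 1.11 on the log2 scale (0.78 to 1.45, Katz interval). The killer-gene-rich CD8 cells outside the rule were also a larger share in BM + Spl, 44 cells (0.737%) and 117 cells (2.11%). A sort after depletion sets such shares, so they are shares of sorted cells and not of the thymus. Depth differed as well, with 35041153 UMIs in all barcodes of BM only and 43383960 in BM + Spl. When every cell was thinned to 2000 UMIs, which left out 541 and 256 shallower cells, the shares were 1.16% (63 of 5429) and 2.91% (154 of 5301), a log2 ratio of 1.32 (0.90 to 1.74). BM only and BM + Spl shared 43 cell barcodes, 2 of them held by members.

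What set the members apart from the iNKT side of the same libraries, beyond the genes of the rule, is given as a description, because the rule splits the same cells. The 10 genes with the largest ratio to Zbtb16+ cells in the lower of both libraries were Dapl1, Nrn1, Gm49180, Ms4a4c, Il1r2, Tnfsf8, Hdac9, Rgs16, Penk and Pou2f2. Nrn1, which encodes neuritin, stood at 278 CPM in BM only and 332 in BM + Spl, against 2.37 and 1.89 CPM in Zbtb16+ cells. Its UMIs came from 24 and 55 members. Penk, the precursor of the enkephalin peptides, was at 651 and 438 CPM in members and 7.25 and 31.0 in Zbtb16+ cells. Il1r2, the decoy receptor of interleukin 1, was at 97.6 and 126 CPM, and Tnfsf8, the ligand of CD30, at 265 and 133, against at most 8.25 CPM in Zbtb16+ cells for either gene. Tnfsf8 was also detected widely, in 37 and 68 members, as was Ms4a4c, in 33 and 62. Penk came from 23 and 40 members and Hdac9 from 5 and 28. Levels in other cells of the libraries are not given here, so these genes are not shown to be particular to the members.

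Maturity genes were spread unevenly over the members, and the early and late ends differed between libraries in opposite directions. Rag1 (chr2:101638282-101649501, minus strand), which cuts the receptor loci, summed to 39 UMIs in 16 BM only members and 22 UMIs in 10 BM + Spl members. Its level was 82.7 CPM (58.8 to 113) in BM only and 19.6 CPM (12.3 to 29.6) in BM + Spl, and it was at 0 in the Zbtb16+ cells of both libraries. The log2 ratio of BM + Spl over BM only was -2.08 (-2.90 to -1.29). It was -3.14 without members that lacked CD3 UMIs or held plasmacytoid dendritic or NK cell genes, and -2.88 in cells with over 1000 genes. Dntt, the terminal transferase that adds bases at the joints, was at 80.6 and 25.8 CPM (14 and 13 cells), a log2 ratio of -1.64. Both genes were found together in 10 and 7 members. Arpp21 was at 61.5 and 32.0 CPM and Cd24a, a surface protein of immature thymocytes that the sort gated against, at 50.9 and 20.5. Summed over the 9 cortical genes, members held 494 CPM in BM only and 203 in BM + Spl. Genes with at least 100 UMIs over the members of both libraries are written as tested below, although 1 library per condition allows no statistical test, and a tested gene was called when the counting interval of its ratio lay past 1.5-fold. Over all tested genes 0.642% were called higher and 0.803% lower in BM + Spl. Only Tcf12 of the 9 cortical genes was tested, with 110 and 74.7 CPM, and it was not called, so these genes rest on few UMIs.

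Sox4 and Itm2a, the genes of newly selected cells, gave no clear order of the libraries. Sox4 (chr13:28948919-28953713, minus strand), a transcription factor, was at 87.0 CPM in BM only (21 members) and 74.7 CPM in BM + Spl (45 members), with a log2 ratio of -0.22 whose interval (-0.77 to 0.36) held 0. In Zbtb16+ cells it was at 48.9 and 52.5 CPM. Itm2a (chrX:107397099-107403376, minus strand), a membrane protein of thymocytes, was at 261 and 165 CPM in 27 and 68 members, a log2 ratio of -0.67 (-1.002 to -0.32). In BM only 43 of its 123 UMIs came from 1 cell, and the ratio was -0.19 without the top cell of each library and -0.02 as a mean over cells. Its direction turned under 4 of the alternatives that were run, for instance to 0.14 without members holding a cortical gene. Among the 12 genes of the recently selected list, 8 were tested, none was called, and their median log2 ratio was 0.09 against -0.03 over all tested genes. Cd69, which holds cells in the thymus, was at 106 and 129 CPM, and Bach2, a repressor of effector programmes, at 91.2 and 160, the latter a log2 ratio of 0.81 (0.32 to 1.33).

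Genes of mature cells had higher levels in BM + Spl for Ccr7, S1pr1 and Lef1, of which only Lef1 was called. Ccr7 (chr11:99144196-99155077, minus strand), the chemokine receptor of medullary and naive T cells, was at 490 CPM in 47 BM only members and 690 CPM in 157 BM + Spl members. Its log2 ratio was 0.49 (0.28 to 0.71), which was 0.28 with at least 2 UMIs of each Cd8 gene and 0.25 with Siglech and Foxp3 not asked to be 0, but 0.74 with no killer gene allowed and 0.73 after thinning to 2000 UMIs. Zbtb16+ cells had 126 and 168 CPM. S1pr1 (chr3:115710433-115715072, minus strand) was at 8.48 CPM (4 UMIs in 4 cells) in BM only and 51.6 CPM (58 UMIs in 36 cells) in BM + Spl. That gave a log2 ratio of 2.60 with a wide interval, 1.17 to 4.53, and Zbtb16+ cells had 40.2 and 43.4 CPM. Lef1 was at 174 and 368 CPM, below the 454 and 511 CPM of Zbtb16+ cells. Its log2 ratio in members was 1.08 (0.98 and not called with no killer gene allowed). Tcf7, its partner factor, was at 619 and 542. Il7r, the receptor of the survival cytokine interleukin 7, was at 178 and 209 CPM, with an interval that held 0.

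Cell depth bears on these detections, since members with cortical genes were the shallowest. In members thinned to 1000 UMIs (98 in BM only and 206 in BM + Spl, with 6 and 3 left out), Rag1 was found in 11.2% and 3.4%, Sox4 in 12.2% and 9.22%, and Itm2a in 12.2% and 10.2%. Ccr7 was found in 27.6% and 45.6% of them and Klf2 in 15.3% and 37.9%. S1pr1 was found in 0 of 98, which allows up to 3.06% by 3 cells and 3.69% as the exact upper bound, and in 4.37% of BM + Spl members (2.02 to 8.13), so the intervals overlapped. Thinning to 2000 UMIs kept 74 and 187 members and left Rag1 in 1 member of each library, so the Rag1 difference cannot be seen among the deeper cells. The direction of Ccr7 (45.9% and 63.6%), S1pr1 (2.70% and 10.7%) and Klf2 (27.0% and 48.7%) stayed the same at that depth.

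**Figure D2:**
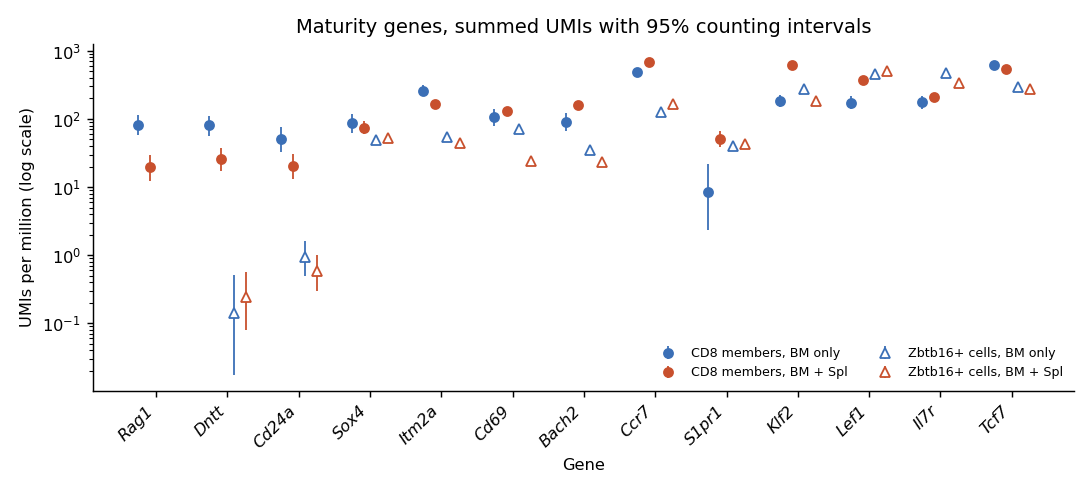
Level of maturity genes in CD8 members and in Zbtb16+ cells of both BMT libraries, in CPM on a log axis with 95% exact Poisson intervals. Rag1 is lower and S1pr1 and Ccr7 are higher in BM + Spl members, Sox4 has overlapping intervals, and Rag1 in Zbtb16+ cells is at 0 and not drawn.

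Members with Ccr7 or S1pr1 and no cortical or inhibitory receptor gene were a larger share in BM + Spl. Sets of members were defined after the values were seen, in this order. A member with a UMI of Rag1, Rag2, Dntt, Ptcra, Arpp21 or Cd24a was placed in a cortical set, one with Lag3, Ctla4 or Tigit in an inhibitory receptor set, and one with Ccr7 or S1pr1 in a Ccr7 set. The cortical set held 30 BM only members (28.8%, 20.4 to 38.6) and 30 BM + Spl members (14.4%, 9.90 to 19.9). Their medians of 1744 and 1809 UMIs were the lowest of the sets, and 15 and 9 of them had a Cd4 UMI. The inhibitory receptor set held 54 (51.9%) and 95 (45.5%) members, with medians of 4375.5 and 4984 UMIs. The Ccr7 set held 11 (10.6%, 5.4 to 18.1) and 75 (35.9%, 29.4 to 42.8), and 9 members of each library (8.65% and 4.31%) had none of these genes. Ccr7 was not confined to the set named for it, because of the order of placing. It was also found in 31 of 54 and 72 of 95 inhibitory receptor members and in 7 and 13 of the 30 cortical members. In BM only its level was 653 CPM in the cortical set and 478 CPM in the Ccr7 set. At 1000 UMIs a cell the Ccr7 set was 14.3% of BM only members (8.04 to 22.8) and 36.4% of BM + Spl members (29.8 to 43.4), the inhibitory receptor set 33.7% and 23.3%, and the cortical set 18.4% and 9.22%. At 2000 UMIs (74 and 187 members) the Ccr7 set was 16.2% and 41.7%, the inhibitory receptor set 60.8% and 34.2%, the cortical set 5.41% and 4.28%, and 17.6% and 19.8% had none of the genes. The larger share of the Ccr7 set in BM + Spl was thus seen at each depth, whereas the cortical shares at 2000 UMIs (4 of 74 and 8 of 187) could not be told apart, at a depth above the median of that set.

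**Figure D3:**
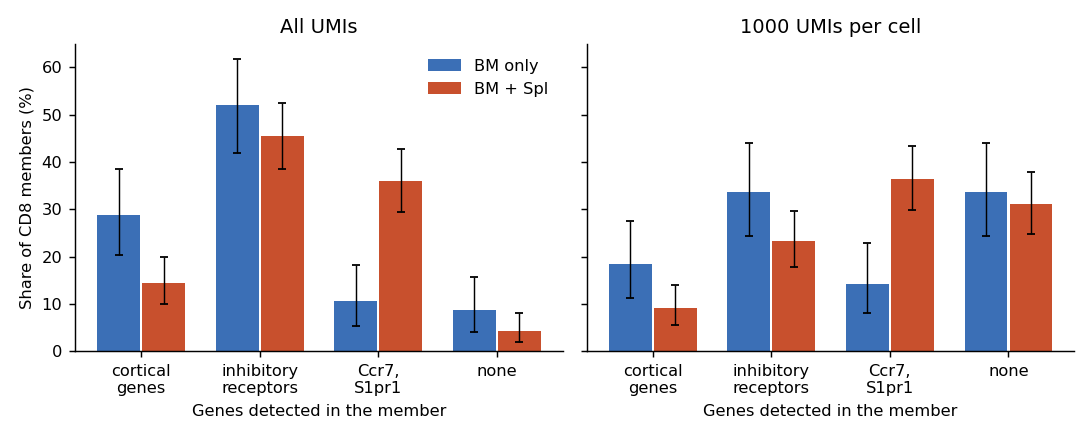
Percent of CD8 members (y axis) in the cortical, inhibitory receptor and Ccr7 sets and in none of them, for each BMT library with all UMIs (left) and at 1000 UMIs a cell (right), with 95% exact binomial intervals. With all UMIs the Ccr7 set is 10.6% of BM only and 35.9% of BM + Spl members, and the cortical set 28.8% and 14.4%.

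Some genes gathered in 1 set. Nrn1 was at 435 and 517 CPM in the inhibitory receptor set (20 and 51 cells), and Xcl1, a chemokine for cross-presenting dendritic cells, at 494 and 527. Of the 346 Xcl1 UMIs of BM + Spl members, 128 came from 1 cell. Penk was at 1120 and 641 CPM there, but at 742 CPM in the cortical set of BM + Spl, on 96 UMIs from 2 cells. Most Nrn1 UMIs of members (118 of 131 and 312 of 373) lay in that set. Lag3 over all members was at 261 and 189 CPM, Ctla4 at 168 and 181 and Pdcd1, which encodes PD-1, at 185 and 99.6. Of the 7 inhibitory receptor genes 3 were tested and none was called. Sox4 was highest in the cortical set, 203 and 201 CPM. Klf2, the factor that switches on S1pr1, was at 319 (16 UMIs) and 1442 CPM (510 UMIs) in the Ccr7 set, a log2 ratio of 2.18 (1.46 to 2.99), and at 169 and 205 CPM in the inhibitory receptor set, 0.28 (-0.22 to 0.80). Ifi47, an interferon-inducible GTPase, was higher in BM + Spl in the cortical, inhibitory receptor and Ccr7 sets, with log2 ratios of 2.05, 1.35 and 2.22, though on 7, 19 and 4 UMIs in BM only.

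Over all members, UMIs were summed for each library. Of 2492 tested genes 16 (0.642%) were called higher and 20 (0.803%) lower in BM + Spl, with 471520 and 1124527 UMIs behind the sums. Of these 36 genes, 7 were TCR segments, mitochondrial genes or genes of the rule. Intervals lay above 0 for 9.95% of tested genes and below 0 for 10.9%, and the median log2 ratio was -0.03. In BM only members the median share of ribosomal protein UMIs was 20.3% and in BM + Spl members 26.4%, and mitochondrial medians were 0.924% and 0.584%. The part of these differences in the ratios was not tested, but leaving both gene kinds out of the scaling gave 17 higher and 13 lower calls and moved the median by 0.06.

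The genes called higher in BM + Spl included Klf2, Igfbp4 and the interferon-linked Ifi47, Ifi213 and Ifi208. Klf2 (chr8:72319033-72321656, plus strand) was at 185 CPM (87 UMIs in 26 cells) in BM only and 612 CPM (688 UMIs in 121 cells) in BM + Spl, a log2 ratio of 1.73 (1.41 to 2.07). In Zbtb16+ cells Klf2 went the other way, from 274 to 181 CPM, with a log2 ratio of -0.60. Igfbp4, a secreted binder of insulin-like growth factors that naive T cells express, was at 48.8 CPM (23 UMIs in 6 cells) and 202 CPM (227 UMIs in 45 cells), a log2 ratio of 2.05 (1.43 to 2.74). After thinning it was 0.40 and not called, and in Zbtb16+ cells it was 0.17. Zbtb16+ cells had more Igfbp4 than members in both libraries, 507 and 569 CPM. Klf2 was called under each of the 8 alternatives run for named genes. Ifi47 was not called after thinning (1.32). Ifi213 was not called without members holding a cortical gene (1.19), with at least 2 UMIs of each Cd8 gene (1.64), with no killer gene (2.81) or after thinning (1.52). Ifi208 was not called under these 4, nor without members with signs of another lineage or members over 2 times the median UMIs, and was 1.15 to 1.45 under the 6. Dapl1 was at 25.4 and 86.3 CPM and H2-Eb1, an MHC class II beta chain, at 25.4 and 80.03. Without the member with the most UMIs of the gene in each library, neither was called, at log2 ratios of 1.95 and 1.93 on the few UMIs left. Dapl1 was also not called after thinning to 2000 UMIs (0.47), with no killer gene (0.88) or with at least 2 UMIs of each Cd8 gene, where its ratio was no smaller. H2-Eb1 was not called under 7 of the 8 alternatives, and its ratio was 1.26 to 2.60 under these. Vps37b, a subunit of an endosomal sorting complex, was at 59.4 and 153 CPM, and Dusp2, a phosphatase of MAP kinases, at 89.1 and 224, with log2 ratios of 1.36 and 1.33.

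Of the 16 mature naive and egress genes 15 were tested, and 3 were called higher (Klf2, Lef1 and Dapl1) and none lower. Intervals lay above 0 for 8 of the 15 and held 0 for 7. Their median log2 ratio was 0.41, where all tested genes had -0.03 and the same genes in Zbtb16+ cells -0.12. The list summed to 3669 and 4971 CPM. Gimap6 (134 and 244 CPM) and Gimap4 (74.2 and 127), GTPases of lymphocyte survival, were among those with intervals above 0, and Tcf7, Cd27 and Satb1 among those that held 0. S1pr1 was below the UMI minimum and stands outside these counts.

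Several interferon-inducible genes were higher in BM + Spl members. Ifi47 was at 74.2 CPM in 23 cells and 259 CPM in 111 cells, a log2 ratio of 1.80, against 0.27 in Zbtb16+ cells. Ifi213 was at 31.8 and 89.8 CPM (1.497) and Ifi208 at 33.9 and 88.9 CPM (1.39), both of the interferon-inducible PYHIN family. Of the 14 genes on the interferon list 9 were tested, and intervals lay above 0 for 6 and held 0 for 3. The median of the 9 was 0.62, against 0.39 in Zbtb16+ cells, and the list summed to 2971 and 4779 CPM, of which Ifi27l2a gave 1741 and 2694. Isg15, a ubiquitin-like protein, was at 82.7 and 149 CPM, Irf7, a factor of type I interferon production, at 97.6 and 150, and Zbp1, a nucleic acid sensor, at 44.5 and 90.7. The intervals that held 0 were those of Bst2 (252 and 259 CPM), Isg20 and Xaf1. Ifit1 was below the UMI minimum, with 5 UMIs in BM only and 43 in BM + Spl.

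The promoters of some of these genes held the letters of an interferon-stimulated response element, GAAANNGAAA. It is shown for Ifi213 and Ifi208, whose calls were lost under the alternatives given above. It is also shown for Isg15 and Ifit1 of the interferon list, which were not called. Isg15 had an interval of 0.34 to 1.39, and Ifit1 rests on few UMIs. RefSeq windows from 250 bases before to 50 bases after each start (GRCm38.p6) were searched on both strands, so TTTCNNTTTC counted too, and overlapping matches were kept. In the sequences below, the matching letters are in capitals, read along the strand of the gene.
Ifi213: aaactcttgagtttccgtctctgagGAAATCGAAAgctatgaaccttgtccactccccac
Ifi208: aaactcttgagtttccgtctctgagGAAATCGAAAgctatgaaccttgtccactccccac
Isg15: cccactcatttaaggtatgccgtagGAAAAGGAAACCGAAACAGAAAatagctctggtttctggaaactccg
Ifit1: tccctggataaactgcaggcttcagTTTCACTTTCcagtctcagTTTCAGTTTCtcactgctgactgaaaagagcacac
They lie at chr1:173599311-173599370 (minus strand) for Ifi213, chr1:173673582-173673641 (plus strand) for Ifi208, chr4:156200850-156200921 (minus strand) for Isg15 and chr19:34640760-34640838 (plus strand) for Ifit1. The first match began 73, 58, 78 and 104 bases before the start, in that order. The Ifi213 and Ifi208 stretches were identical over all 60 bases printed, and 282 of 285 compared bases of their windows were the same. Whether their transcripts are as alike, and so whether reads could be split between them in counting, was not compared. Of the 10 genes with the largest ratios, 8 had a window and 2 of these (25%, Ifi213 and Ifi208) held the match. Of the 10 lowest genes 8 had a window and none held it. On the interferon list 5 of the 9 genes with a window held it (55.6%: Ifit1, Ifit3, Isg15, Rsad2 and Bst2). The share was 4.54% of 1981 tested genes with a window and 3.99% of all 27025 genes with a window. Counted by window and not by gene, it was 3.44% of all 32851 windows. Vps37b had no window in the table.

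MHC class I genes and the TCR complex differed little. None of the 13 MHC class I genes was called, and 5 intervals lay above 0, among them H2-Q7 at 138 and 231 CPM, Psmb9, an immunoproteasome subunit, at 265 and 396, and B2m at 1591 and 2055. Their median log2 ratio was 0.28. Of 11 TCR complex genes none was called, 4 intervals lay above 0 and 1 below, and the median was 0.15. Of the 5 tested coreceptor and lineage genes, Cd8a and Cd8b1 are genes of the rule, so their ratios say nothing about the members. Runx3, Runx1 and Tox had intervals that held 0, with Runx3, the CD8 lineage factor, at 93.3 and 80.9 CPM. Zbtb7b, which directs the CD4 lineage, was at 8.48 and 7.11 CPM. Cell cycle genes (6 of 14 tested, median -0.02) and glycolysis genes (9 of 13 tested, median -0.01) had no call.

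Genes that were called lower in BM + Spl members included galectin-3, S100 proteins and immediate early genes. Part of the calls depended on 8 BM only members that held the V alpha segments Trav13-2 and Trav4-4-dv10, described further below. Without them 14 genes were called lower and 17 higher, and 27 of the 36 calls stayed. The named genes were not followed one by one under this alternative. Lgals3, the galectin-3 gene, was at 494 CPM (17 cells, 70 of 233 UMIs from 1 cell) in BM only and 64.9 CPM (19 cells) in BM + Spl, a log2 ratio of -2.93. S100a4 and S100a6, calcium-binding proteins of memory and innate-like T cells, were at 356 and 96.9 CPM (-1.88) and at 903 and 357 CPM (-1.34). Bhlhe40, a transcription factor of activated T cells, was at 416 and 197 CPM and Rgs1, which dampens chemokine receptor signals, at 246 and 117. In Zbtb16+ cells these were lower in BM + Spl too, with log2 ratios of -0.99 for Lgals3, -1.06 for S100a4, -1.59 for Bhlhe40 and -1.73 for Rgs1. Psap (484 and 228 CPM), Syngr2 (178 and 69.4) and Gng10 (206 and 101) were not called without the member with the most UMIs of the gene in each library, and then had log2 ratios of -0.43, -0.89 and -0.84. In BM only that member gave 87 of 228 Psap UMIs, 29 of 84 Syngr2 UMIs and 16 of 97 Gng10 UMIs. Without members that lacked CD3 UMIs or held plasmacytoid dendritic or NK cell genes, the ratios of Psap, Syngr2 and Gng10 were -0.25, -0.14 and -0.62 and none was called, while Lgals3 (-2.98) and S100a4 (-2.12) still were. Lgals3 was -1.07 after thinning and was not called, -1.72 without members over 2 times the median UMIs, and -3.29 and not called with no killer gene allowed, where S100a4 (-2.23) was not called either. Rgs1 was not called with at least 2 UMIs of each Cd8 gene (-0.34) or with no killer gene (-0.71), nor was S100a6 under either (-0.78 and -1.06). Bhlhe40 was not called at 2 UMIs (-0.79) or after thinning (-0.99).

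Of 19 effector and memory genes 12 were tested, 2 were called lower (S100a4 and S100a6), none higher, and 8 intervals lay below 0. The median was -0.59 in members and -0.91 in Zbtb16+ cells, and the list summed to 3603 and 2269 CPM. Nkg7, a granule protein of cytotoxic cells and the most abundant of the list, was at 645 and 616 CPM in members. Cd44, the receptor of activated cells, was at 185 and 103 CPM and Cxcr6 at 218 and 126. The 7 killer genes of the rule, which had been limited by it, summed to 437 and 358 CPM.

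Fos, Fosb and Jun, which are immediate early genes, were lower in BM + Spl in members and in Zbtb16+ cells. Of 11 dissociation stress genes 8 were tested and 3 (Fos, Fosb and Jun) were called lower, with a median of -0.60 in members and -1.16 in Zbtb16+ cells. Jun was at 755 and 375 CPM (-1.01, but -0.54 with at least 2 UMIs of each Cd8 gene and -0.80 after thinning, neither called), Fosb at 125 and 50.7 (-1.30) and Fos at 787 and 447 (-0.81). Fosb was not called under 5 of the 8 alternatives, with -0.85 at 2 UMIs of each Cd8 gene, nor Fos under 4, with -0.54 there. The sum went from 5470 to 4071 CPM in members and from 5639 to 2736 CPM in Zbtb16+ cells. Of the 8 tested genes, 5 had intervals below 0 in members, 2 (Junb and Jund) had intervals that held 0, and 1 lay above 0. The last was Ier2, at 212 and 270 CPM in members. With 1 library per condition, a difference in handling cannot be told apart from the condition. Of 12 TCR signal genes 6 were tested and none was called. Nr4a1, induced by TCR signals, was at 55.1 and 114 CPM (1.05), whereas Pdcd1 was lower (-0.89).

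**Figure D4:**
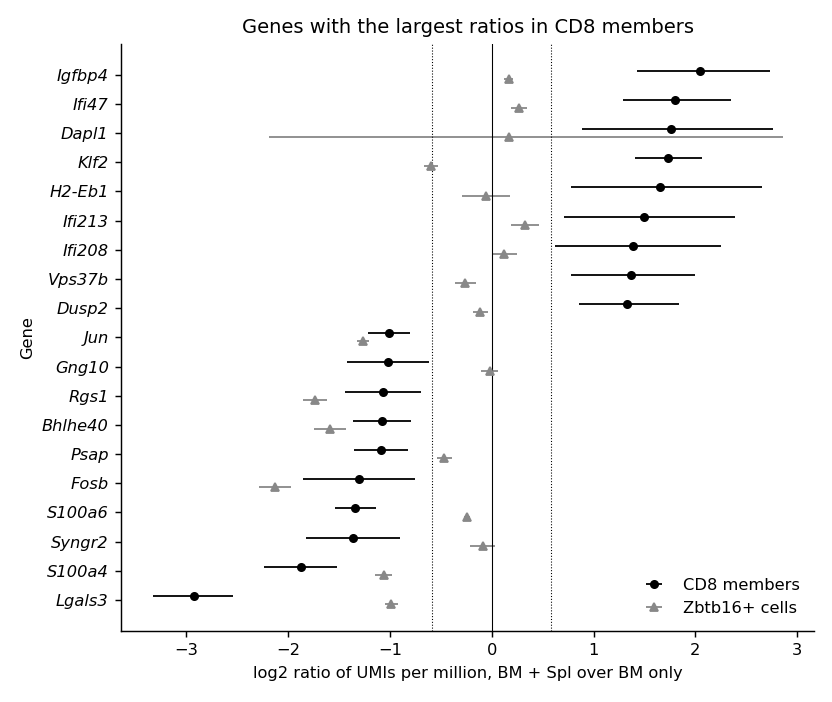
Log2 ratio of BM + Spl over BM only for called genes of CD8 members with the largest and lowest ratios, with 95% counting intervals, beside the same ratio in Zbtb16+ cells. Klf2, Vps37b and Dusp2 lie on opposite sides of 0 in the compared cells, and Lgals3, S100a4, Fosb, Bhlhe40, Rgs1 and Jun lie below 0 in both.

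V beta use differed between the members and Zbtb16+ cells. The study lists a 3′ kit, a 5′ kit and a V(D)J enrichment kit for mouse T cells. Which of them gave the counts used here is not clear, so how completely V segments were captured is unknown. A cell was called for a segment that held at least 80% of its Trbv UMIs, with Trbv12-2 and Trbv13-2 counted as 1 segment. Of the 15 and 21 members with Trbv13-2 UMIs, 14 and 19 also held Trbv12-2. Trbv12-2 was found in 32 and 75 members, most of them without Trbv13-2. By this call, 76 BM only and 168 BM + Spl members had a segment. Segments of iNKT cells (Trbv1, Trbv12-2/13-2, Trbv13-1, Trbv13-3 and Trbv29) were used by 28 of them (36.8%, 26.1 to 48.7) and by 66 (39.3%, 31.9 to 47.1). The share was 93.8% and 94.4% among Zbtb16+ cells, 41.7% and 30.8% among the killer-gene-rich CD8 cells, and 29.2% and 28.7% among Foxp3+ cells. The members were spread over 15 and 20 segments, and the intervals of the iNKT segment shares overlapped between the libraries. With Trbv12-2 and Trbv13-2 called apart, but both still counted as iNKT segments, the shares of members were 33.3% and 37.8%. The share without Trbv12-2 was not worked out, so how far it adds to the iNKT segment shares is unknown. UMIs of 2 or more segments were present in 40 and 93 members. Of the invariant alpha chain, Trav11 gave 0 of 262 and 1 of 826 Trav UMIs of members, against 2.83% and 1.43% in Zbtb16+ cells, and Traj18 gave 0 and 2 UMIs. Both segments were seldom captured even in Zbtb16+ cells, where Traj18 was found in 63 of 1698 and 133 of 1911 cells (4.95 and 7.04 CPM), so their absence from a member says little. The 11 iNKT genes summed to 585 and 491 CPM in members and to 1352 and 1656 CPM in Zbtb16+ cells, with 3 of them tested. Izumo1r, which encodes folate receptor 4, was called higher in BM + Spl members (67.9 and 157 CPM, log2 ratio 1.21) but not under 5 of the 8 alternatives (0.76 to 1.09), and Icos, a costimulatory receptor, was at 244 and 143.

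Segments read by endogenous superantigens in mice with I-E, which BALB/c mice have and C57BL/6 mice lack, were still in use. Trbv12-1, Trbv15, Trbv16 and Trbv26 together were called in 14 of 76 BM only members (18.4%, 10.5 to 29.0) and 24 of 168 BM + Spl members (14.3%, 9.37 to 20.5). Their share was 13.9% and 24.2% among the killer-gene-rich CD8 cells, 10.4% and 13.5% among Foxp3+ cells, and 0.358% and 0.368% among Zbtb16+ cells. Trbv12-1 was called in 8 and 7 members and Trbv16 in 4 and 8. Trbv12-2 belongs to this group as well but was counted together with Trbv13-2, so these shares leave it out.

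Trbv5 was the most common segment in BM only and not in BM + Spl. It was called in 16 of 76 members (21.1%, 12.5 to 31.9) and 14 of 168 (8.33%, 4.63 to 13.6), so that the intervals met only at their edges. Trbv12-2/13-2 was called in 11 (14.5%) and 23 (13.7%), Trbv13-1 in 5 (6.58%) and 21 (12.5%), Trbv14 in 2 and 12, and Trbv4 in 2 and 12. Some members held the same combination of V segments, so these counts may not all be independent. No CDR3 sequence was used here, so a shared receptor was not shown. Of the 16 Trbv5 members of BM only, 8 also held UMIs of both Trav13-2 and Trav4-4-dv10, a combination looked for after the values were seen. The same trio of segments was found in 17 filtered BM only cells, of which 5 had 3 or more killer genes and 4 were other cells, and in 0 BM + Spl cells. None of the 17 had a Zbtb16 UMI. Of the 8 members, 7 had a UMI of an inhibitory receptor gene. Without these 8, Trbv5 was called in 8 of 68 BM only members (11.8%, 5.22 to 21.9), and its interval covered the BM + Spl share. In BM + Spl, Trbv14 with Trav13n-1 and Trav3-3 was found in 9 cells, of which 3 were members, 4 had 3 or more killer genes and 2 were other cells, and in 0 BM only cells. Each combination was thus found in both members and killer-gene-rich cells of 1 library. Only 19 and 56 members had a V beta call with 2 or more V alpha segments, so most members could not be compared in this way.

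**Figure D5:**
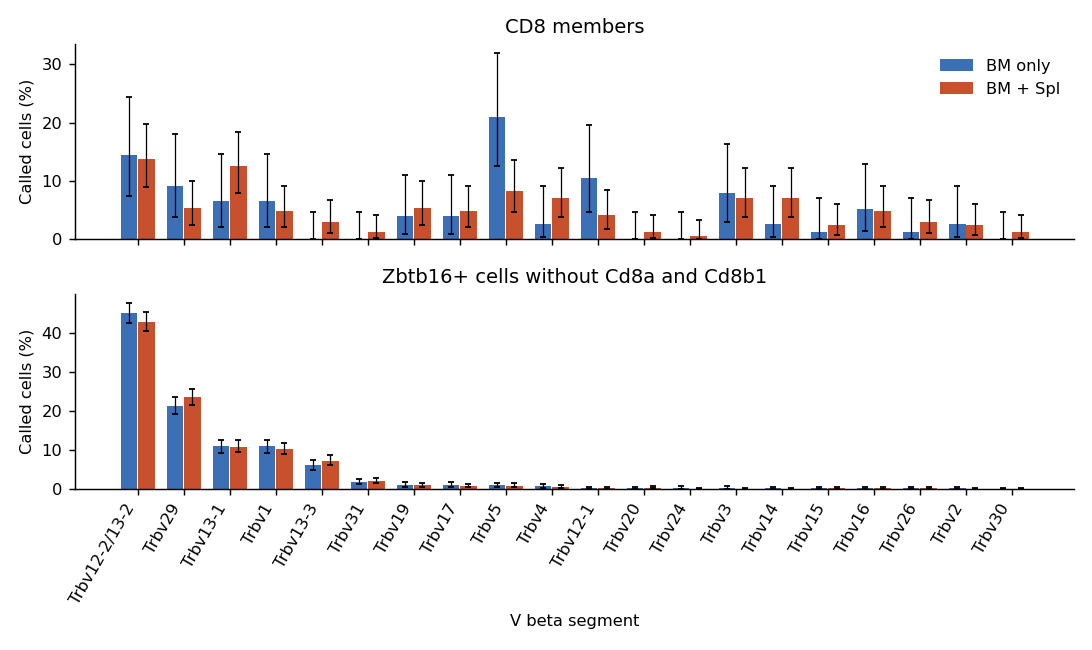
Percent of cells called for each Trbv segment (x axis) among CD8 members (upper panel) and Zbtb16+ cells (lower panel) of both BMT libraries, with 95% exact binomial intervals. Among members Trbv5 is 21.1% in BM only and 8.33% in BM + Spl with intervals that overlap for every segment, and Zbtb16+ cells gather on the iNKT segments at the left.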

How the data were processed

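The authors sorted thymic cells and sequenced 1 droplet library per condition. Per the labels and methods, Cell Ranger and Seurat 4.0.2 were used with mm10, and the matrix headers name versions 3.0.2 for C57BL/6 (31053 genes) and 7.0.0 for the BMT libraries (32285 genes). The authors deposited raw UMI counts per gene and cell, and no cell annotation was used. Cells were kept at more than 200 genes, fewer than 6000 genes and less than 10% of UMIs from mitochondrial genes, which left more BMT cells than the study states. Doublets were not called, and were treated through alternatives.

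CD8 members, gene lists, V beta lists and tests were chosen with earlier results of these data known. The sets of members by cortical, inhibitory receptor and Ccr7 genes, the thinning to 1000 UMIs and the V segment combinations were chosen after values were seen. The named genes were those of the lists and of the rule, the 10 called genes with the largest and the 10 with the lowest ratios apart from TCR segments, immunoglobulin, mitochondrial and rule genes, and the 10 genes most above Zbtb16+ cells. Some of these genes are not reported here.

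UMIs of members were summed per library and divided by their total (CPM). With 1 library per condition there was no test. Intervals were exact Poisson for CPM, exact conditional binomial for ratios, Clopper-Pearson for shares and Katz for the share ratio, each at 95% and for counting error only. A gene with at least 100 member UMIs was called when its interval lay past 1.5-fold. The scripts, tested on simulated data, used Python 3.11.15, NumPy 2.4.6, SciPy 1.17.1 and pandas 2.3.3. Positions come from GENCODE (GRCm38) and promoter windows from RefSeq (GRCm38.p6). The alternatives varied the rule, depth, filters, doublets, scaling and thresholds.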

Additional observations from a re-analysis of the deposited data

Results flagged for a closer look

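Among the tested genes that were named by the rule or stand on a gene list, 10 had a ratio of BM + Spl over BM only with opposite signs in CD8 members and in Zbtb16+ cells of the same libraries, with both counting intervals clear of 0. The genes of the membership rule were left out. The difference between the ratios was not tested, since each condition had 1 library. Klf2, the factor of thymic exit, had a log2 ratio of 1.73 in members and -0.60 in Zbtb16+ cells, a difference of 2.33. Vps37b had 1.36 and -0.26, a difference of 1.62. Dusp2 had 1.33 and -0.11, a difference of 1.44. Bach2 had 0.81 and -0.60, a difference of 1.41. Gimap3, a GTPase of lymphocytes, had 0.41 and -0.68, a difference of 1.09. Ier2, an immediate early gene, had 0.35 and -0.68, a difference of 1.03. The other 4 were lower in BM + Spl members and higher in BM + Spl Zbtb16+ cells. Icos had -0.77 and 0.31, a difference of -1.08. Mcm3, a subunit of the replicative helicase, had -0.62 and 0.36, a difference of -0.98. Pgam1, a glycolytic enzyme, had -0.41 and 0.19, a difference of -0.61. Cd74, the invariant chain of MHC class II, had -0.22 and 0.29, a difference of -0.50, and 100 of its 278 BM only UMIs in members came from 1 cell. Dusp2 was not called with no killer gene allowed (1.24) or after thinning (1.26), nor Vps37b after thinning (1.13).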

How the results depend on the processing

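No paired analysis was possible because each condition had 1 library, and for the same reason no replicate could be left out. All alternatives planned were run, and 4 were added after seeing the data (members with cortical genes, members with signs of another lineage, the top cell of each gene, and members with a shared combination of V segments left out). The log2 ratio of member shares stayed between 1.10 and 1.38, and no alternative moved it or the iNKT segment shares beyond their intervals.

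The 36 calls became 23 with at least 2 UMIs of Cd8a and Cd8b1, 64 with Siglech and Foxp3 not asked to be 0, 13 after thinning to 2000 UMIs (fewer genes tested), 71 at a minimum of 50 UMIs, 9 at a fold of 2 and 265 when intervals were not used. Under the other alternatives they were 27 to 53. The genes called changed more than these totals. Of the 32 calls with no killer gene allowed, where fewer genes were tested, 13 were among the 36. With no limit on killer genes 18 of 49 calls were among them, and with Siglech and Foxp3 not asked 16 of 64. Without members over 2 times the median UMIs it was 24 of 51. The summed mature naive and egress genes tested had a log2 ratio of 0.43. It was 0.51 with no killer gene allowed, 0.29 with no limit on killer genes, 0.29 with Siglech and Foxp3 not asked, 0.31 after thinning, 0.53 without Cd4+ members, 0.31 without members over 2 times the median UMIs and 0.29 as a mean over cells. For these shifts the cause was not tested. Itm2a reversed, to 0.054 with no killer gene allowed, 0.76 after thinning, 0.14 without cortical members and 0.35 among members with other V beta segments. Sox4, whose interval held 0, was 0.21 and 0.61 under the last pair and -0.79 as a mean over cells. Few UMIs of Rag1, S1pr1 and Ifit1 limit what can be said of them. With 1 library a condition, no difference can be told apart from a difference between libraries.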
